A study of Mus musculus with 18 samples.

Results

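The genes of cholesterol and fatty acid synthesis were followed across mouse B-cell lymphoma cultures that had been treated with adriamycin and then allowed to grow out. The set holds 30 genes picked by name: 7 of the mevalonate steps, 11 of the sterol steps, the sterol carrier Stard4, 5 regulators of sterol regulatory element binding proteins (SREBPs), and 6 of fatty acid synthesis. Of these 30 genes, 29 had a probe set annotated to their symbol alone, among 18194 such genes on the array, and Acat2 was not analysed here. Where a gene had several probe sets, the one with the highest average log2 value was read. All 29 were among the 11897 genes tested, and each was at or above 4.86, the median of all deposited log2 values, on all 17 arrays with values.

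The cells were primary lymphoma cells from lymph nodes of Eµ-myc mice of C57/Bl6 background, in which a Myc transgene drives B-cell lymphoma. In every group the cells were Suv39h1-null and had been transduced with 2 genes, Bcl2, which blocks apoptosis, and Suv39h1-ERT2, a fusion of a histone H3 methyltransferase that becomes active with 4-hydroxytamoxifen (4-OHT). Adriamycin (ADR) damages DNA. Cells of 3 lymphomas, numbered 4146, 4936 and 5043, formed the groups. Big outgrowth and small outgrowth (n = 3 arrays each) were the morphologically big and small cells sorted from cultures given ADR with 4-OHT for 5 days and then kept for 14 days without either. ADR outgrowth (n = 2) came from cultures kept in the same way after ADR alone, and its titles name no sorting by size. ADR+4-OHT 5 d and ADR 5 d (n = 3 each) were taken at the end of the 5 days, and untreated cells (n = 3) received neither. No group received 4-OHT alone, the ADR outgrowth of lymphoma 5043 had no values, and the labels state neither the sex nor the age of the mice.

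Cells build cholesterol from acetyl-CoA through mevalonate, farnesyl diphosphate, squalene and lanosterol. Fatty acids come from the same precursor through acetyl-CoA carboxylase and fatty acid synthase, followed by elongation and desaturation. SREBPs are transcription factors held in the endoplasmic reticulum by Scap and the Insig proteins. When sterols are scarce, Scap escorts them to the Golgi for cleavage, and the released part enters the nucleus and turns on most genes of the set, Insig1 included, which closes a feedback loop. SREBPs act at sterol elements together with the factor NF-Y, which binds CCAAT boxes, and with Sp1, which binds GC boxes.

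Promoter sequence from RefSeq (build GRCm38.p6) covered 24 of the 30 genes with 32 promoters, each from 250 bases before to 50 bases after a gene start, and Fdft1, Fdps, Scd1, Scd2, Sqle and Stard4 were not matched. Motifs were searched on both strands. The letters CCAAT occurred in 21 of 32 promoters (65.6%), against 37.4% of all 32851 promoters in the table. By gene they occurred in 20 of the 24 (83.3%), against 41.1% of all 27025 genes. The letters GGGCGG, a GC box, occurred in 24 of 32 (75%), against 35.7%. The E-box letters CACGTG occurred in 6 of 32 (18.8%), against 7.15%, and TCACNCCAC, the core of a sterol element, occurred in 1 of 32, that of Hmgcs1, against 1.24% of all promoters. These matches describe the letters in the windows and are not binding sites. Stretches of 120 bases are shown for the gene with a sterol element (Hmgcs1), for those with the lowest p over all groups and a promoter in the table (Pmvk, Cyp51, Srebf2), and for others at the ends of the comparisons below (Msmo1, Insig1, Fasn). The Hmgcs1 stretch lies at chr13:119690109-119690228 on the plus strand, 242 to 123 bases before the gene start. The Pmvk stretch lies at chr3:89454400-89454519 on the plus strand, 141 to 22 bases before the upstream one of 2 annotated starts. The promoter of the other Pmvk start holds no CCAAT box. The Cyp51 stretch lies at chr5:4104698-4104817 on the minus strand, the last 120 bases before the start. The Msmo1 stretch lies at chr8:64733624-64733743 on the minus strand, 165 to 46 bases before the start. The Srebf2 stretch lies at chr15:82147129-82147248 on the plus strand, 140 to 21 bases before the start. The Insig1 stretch lies at chr5:28071191-28071310 on the plus strand, 221 to 102 bases before the start. The Fasn stretch lies at chr11:120824548-120824667 on the minus strand, again the last 120 bases before the start. Each runs 5′ to 3′ along the gene's own strand, and capitals mark CCAAT boxes on either strand and the sterol element. In Fasn 2 boxes overlap on opposite strands.
Hmgcs1: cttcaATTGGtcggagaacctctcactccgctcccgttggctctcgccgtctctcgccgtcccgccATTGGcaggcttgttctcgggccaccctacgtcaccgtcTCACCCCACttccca
Pmvk: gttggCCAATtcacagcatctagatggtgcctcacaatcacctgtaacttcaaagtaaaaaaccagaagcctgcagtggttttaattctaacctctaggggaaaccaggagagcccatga
Cyp51: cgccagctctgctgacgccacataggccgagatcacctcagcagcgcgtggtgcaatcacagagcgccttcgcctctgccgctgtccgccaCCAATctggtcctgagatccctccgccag
Msmo1: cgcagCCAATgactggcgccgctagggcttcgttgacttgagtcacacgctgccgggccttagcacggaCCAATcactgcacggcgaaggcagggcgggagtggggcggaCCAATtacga
Srebf2: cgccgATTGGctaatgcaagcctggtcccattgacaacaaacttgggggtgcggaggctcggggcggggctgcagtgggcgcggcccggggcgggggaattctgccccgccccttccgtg
Insig1: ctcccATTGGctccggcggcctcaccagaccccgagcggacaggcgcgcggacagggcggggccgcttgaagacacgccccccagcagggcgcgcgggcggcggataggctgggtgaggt
Fasn: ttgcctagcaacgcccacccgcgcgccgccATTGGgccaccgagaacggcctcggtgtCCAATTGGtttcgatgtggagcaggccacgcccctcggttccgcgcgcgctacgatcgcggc
The Hmgcs1 stretch carries 2 CCAAT boxes and the sterol element TCACCCCAC, whose first base lies 137 bases before the start. Msmo1 carries 3 CCAAT boxes within its stretch, and Pmvk, Cyp51, Srebf2 and Insig1 carry 1 each. The stretches were chosen to hold the most CCAAT boxes and sterol elements, so a box in each of them follows from that choice.

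Before any comparison, 3 arrays stood apart from the other 14: ADR 5 d of lymphoma 4936, and small and big outgrowth of lymphoma 5043. Their scores on the leading principal component of all tested genes were 66.8, 58.5 and 66.3, and the highest of the others was 5.94. The median of the set is therefore also given without these 3 arrays in each comparison of groups. Of the 9 B-cell markers measured, all were at or above 4.86 on 15 arrays, 8 on untreated cells of 4936 and 7 on ADR outgrowth of 4146. The antigen receptor chain Cd79b ran from 10.25 to 12.09, the B-cell factor Pax5 from 5.36 to 6.44, and the surface protein gene Ms4a1 lay at 3.34 at its lowest. Markers of other cells were present too. In RNA from many cells at once, sorted or not, fewer cells of a type cannot be told apart from less RNA per cell. Of 10 macrophage markers, 5 to 7 were at or above 4.86 per array at ADR 5 d, and 2 to 5 in untreated cells. Of 10 fibroblast markers, 6 or 7 were so in big outgrowth, against 4 or 5 in small outgrowth. Counts of tested markers below leave out those that did not reach 4.86 on 3 or more arrays. A marker high in few groups could pass that filter through those groups alone. The authors' values had also been set to the same median in each lymphoma for every probe set, so a gene's level can be read within a lymphoma but not across lymphomas. Groups said not to overlap below are those whose adjusted values, pooled over lymphomas, did not, which is a description and not a comparison of lymphomas.

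Over the 6 groups, none of the 29 genes varied beyond the spread between arrays after adjustment (moderated F test of limma with a block for lymphoma, Benjamini-Hochberg over all tested genes), where 2.63% of all tested genes did. At an unadjusted p under 0.05 there were 10 of 29, against 26.9% of all tested genes. The lowest adjusted p values were 0.0957 for Pmvk, 0.0958 for Cyp51, 0.0968 for Srebf2 and 0.101 for Stard4. What follows describes how the levels of many of its genes lay together on single arrays within a lymphoma. Genes read on the same array are not independent and are not replicates of a group, so counts of genes below are descriptions.

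**Figure D1:**
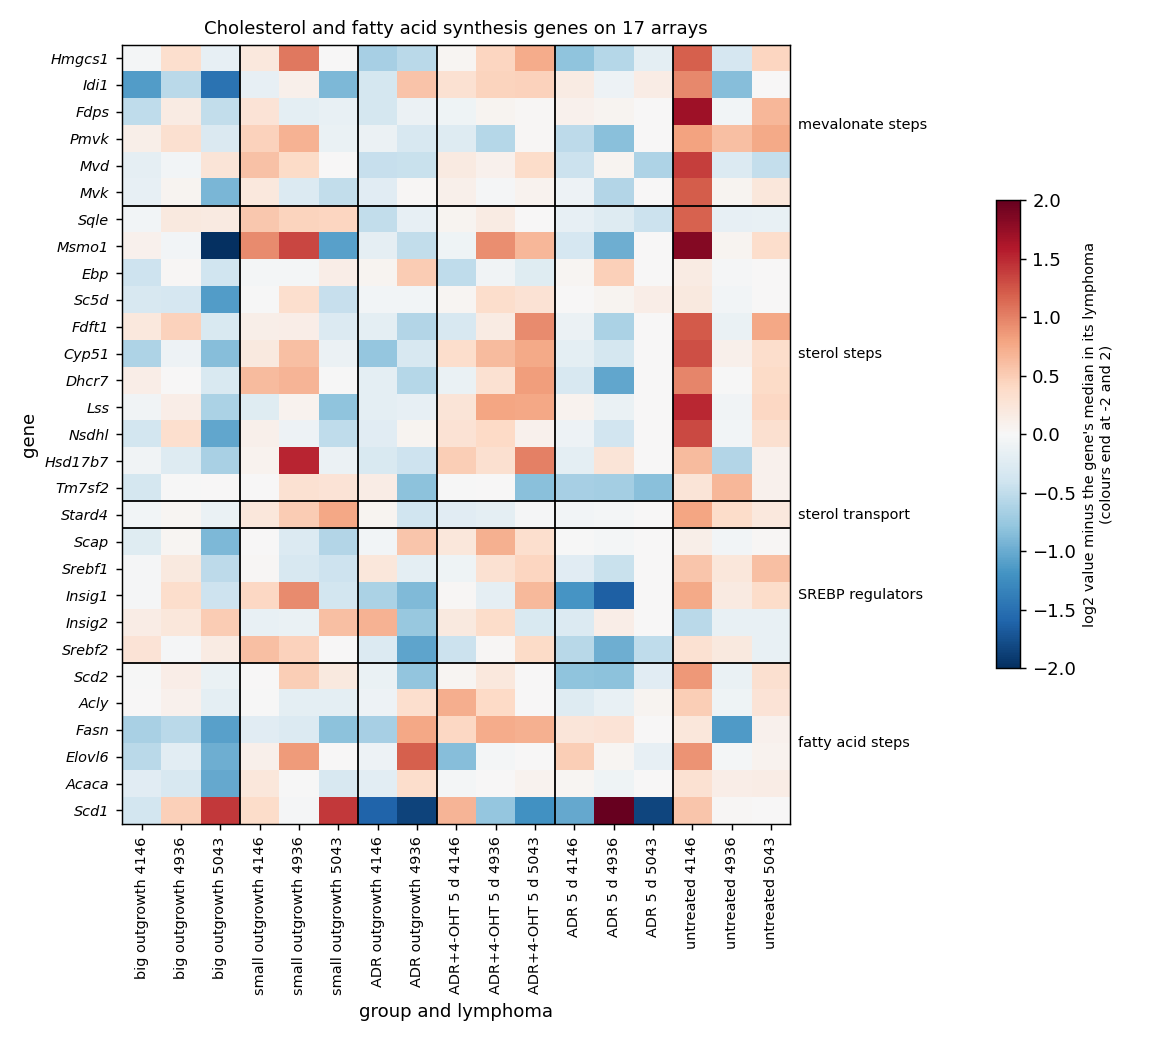
Each row is one of 29 genes, ordered by role, and each column one of 17 arrays, grouped by treatment; the colour is the log2 value minus the gene's median over the arrays of the same lymphoma. Most sterol and mevalonate genes are red in untreated cells of lymphoma 4146, pale red with ADR+4-OHT in lymphomas 4936 and 5043, and blue in the ADR outgrowth and after 5 days of ADR in lymphomas 4146 and 4936, while most are near 0 after ADR in 5043.

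The highest levels of the set were in 1 untreated array, that of lymphoma 4146, where 28 of 29 genes lay above their median in that lymphoma, by a median of 0.81 log2 units. There the 6 measured mevalonate genes lay 1.21 and the 11 sterol genes 1.18 above. In untreated cells of lymphoma 4936 the median over the 29 genes was -0.05, and in those of 5043 it was 0.21. With ADR+4-OHT 5 d the medians were 0.04, 0.22 and 0.29 in lymphomas 4146, 4936 and 5043, and with ADR 5 d they were -0.19, -0.16 and 0. In lymphoma 5043, which has an odd number of arrays, the median of a gene is the value of 1 array, often that of ADR 5 d. Small outgrowth had medians of 0.11, 0.30 and -0.13, big outgrowth -0.07, 0.04 and -0.41, and ADR outgrowth -0.20 and -0.32. Within each lymphoma that had both, the set lay lower in big than in small outgrowth, lower in ADR outgrowth than in small outgrowth, and lower after ADR alone than after ADR+4-OHT.

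**Figure D2:**
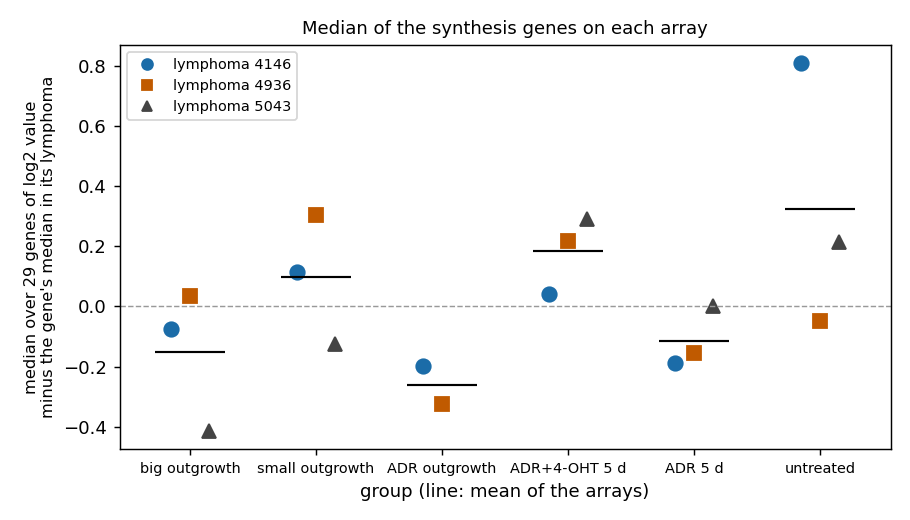
The vertical axis gives the median over the 29 genes of the log2 value minus the gene's median in its lymphoma, with 1 point per array and a line at the mean of each group. Untreated cells of lymphoma 4146 reach 0.81, and the other 16 arrays lie between -0.41 and 0.30.

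After 5 days of ADR alone, with Suv39h1 not switched on, most genes of cholesterol synthesis lay lower than in untreated cells, and the largest differences were in the feedback gene Insig1, the sterol demethylation gene Msmo1 and the phosphomevalonate kinase gene Pmvk. None of the 29 genes passed at an adjusted p under 0.05, and neither did any other tested gene (0%). At an unadjusted p under 0.05, 12 of 29 lay lower, against 5.37% of all tested genes, and 0 lay higher, against 5.96%. The median difference was -0.63 log2 units, against 0.02 over all tested genes, with 24 of 29 below 0, against 47.7% of all tested genes. In all 3 lymphomas 18 of the 29 lay lower, against 19.5% of all tested genes, and 1, Insig2 by the probe set read here, lay higher, against 21.8%.

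Pmvk, which phosphorylates phosphomevalonate, was at 8.05, 7.75 and 8.58 (log2, lymphomas 4146, 4936 and 5043) after ADR, against 9.39, 9.18 and 9.33 in untreated cells. The groups did not overlap, and the difference was -1.17 ± 0.27 log2 units (SE, adjusted p = 0.291). Insig1, which retains SREBPs in the endoplasmic reticulum, was at 7.94, 7.48 and 9.12 after ADR, against 9.88, 9.29 and 9.48 in untreated cells. All values after ADR were below all untreated ones, with a difference of -1.37 ± 0.43 (SE, adjusted p = 0.335). Lymphoma 5043 showed the smallest step, -0.37, against -1.94 in 4146 and -1.81 in 4936. Msmo1, which removes methyl groups from the sterol ring, was at 8.99, 8.35 and 9.32 after ADR, against 11.16, 9.38 and 9.68 in untreated cells. These groups also did not overlap, but the step in lymphoma 4146 was -2.18 and the one in 5043 was -0.36, and the difference of -1.19 ± 0.63 (SE) had an adjusted p of 0.485.

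Among the regulators, Srebf2, the SREBP gene most tied to cholesterol synthesis, was at 8.23, 7.81 and 8.27 after ADR, against 9.08, 8.97 and 8.63 in untreated cells (difference -0.79 ± 0.26, SE, adjusted p = 0.335). Srebf1, most tied to fatty acid synthesis, lay lower by a similar step, -0.69 ± 0.23 (SE, adjusted p = 0.347). Both were lower in every lymphoma. Insig2, the Insig gene that does not depend on SREBPs for its expression in liver, lay 0.23 ± 0.34 (SE) higher, and Ebp, a sterol isomerase gene, 0.12 ± 0.16 (SE) higher. Another Insig2 probe set with a like mean over the arrays, 8.67 against 8.70, gave -0.25, and one with a mean of 7.72 gave 0.10. The direction of Insig2 therefore depended on the probe set. Of the fatty acid genes, Scd2, a desaturase gene, was at 11.62, 11.60 and 12.19 after ADR, against 13.28, 12.29 and 12.74 in untreated cells, with no overlap (-0.97 ± 0.26, SE, adjusted p = 0.305). Fasn, the fatty acid synthase gene, had the highest difference, 0.44 ± 0.40 (SE), which came from lymphoma 4936 at 1.41, while 4146 gave 0.00 and 5043 gave -0.08. By role, 9 of 11 sterol genes and 5 of 6 mevalonate genes lay below 0, with medians of -0.68 and -0.72, and the 6 fatty acid genes had a median of -0.20.

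The size of this difference rested partly on the untreated array of lymphoma 4146. By lymphoma the medians were -1.30 in 4146, -0.21 in 4936 and -0.32 in 5043, and without that array the median over the 29 genes was -0.25, with 6 of 29 lower at an unadjusted p under 0.05 against 6.71% of all tested genes. Without the 3 arrays that stood apart it was -0.60, with 9 of 29 lower against 2.71%. The 7 tested macrophage markers had a median difference of 2.17 and the 6 tested fibroblast markers 2.06 in the same comparison, none of them called, and their part in the differences of the synthesis genes was not tested. Over all 10 macrophage markers measured, untested ones included, the median level was 9.14 on the ADR array of lymphoma 4936. It was 5.22 and 5.19 on those of 4146 and 5043.

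**Figure D3:**
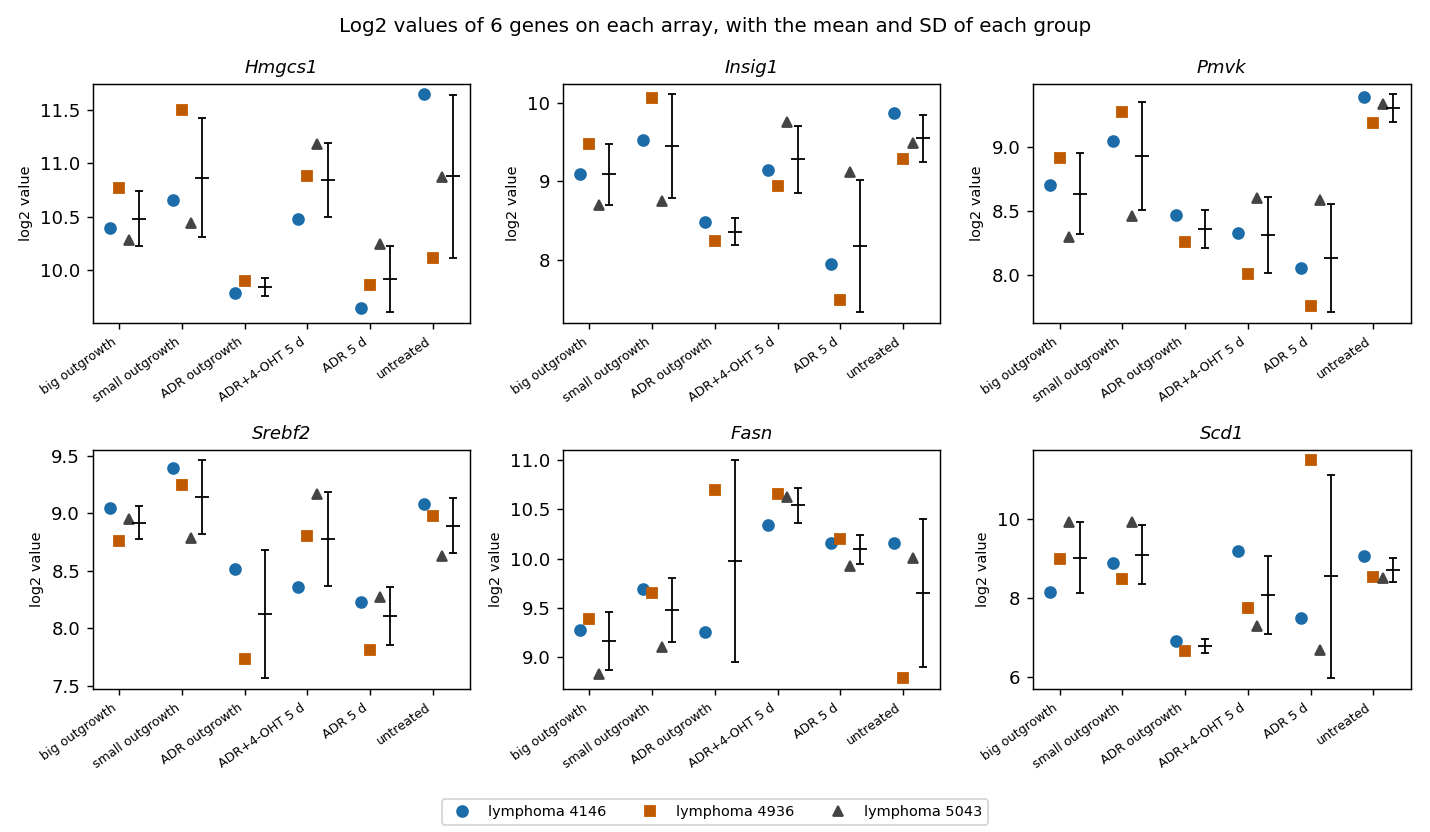
Points give the deposited log2 value of 6 genes on each array, with 1 symbol per lymphoma, and bars give the mean and SD of each group (n = 3, or 2 for ADR outgrowth). The SD is that of values set to a common median in each lymphoma and is not the spread between lymphomas. Hmgcs1, Insig1 and Srebf2 have their lowest group means in both groups that had ADR alone, Pmvk has its highest mean in untreated cells, and Scd1 reaches 11.48 on 1 ADR array.

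With 4-OHT, which switches on Suv39h1-ERT2, added during the same 5 days, the set lay higher than after ADR alone. No group received 4-OHT alone, so 4-OHT itself and active Suv39h1 cannot be told apart here. The largest differences were in Insig1, Msmo1 and Hmgcs1, the gene of the synthase that opens the mevalonate route. No gene of the 29 and none of all tested genes passed (0%). At an unadjusted p under 0.05, 7 of 29 lay higher with ADR+4-OHT, against 4.93% of all tested genes, and 1 lay lower, against 7.6%. The median was 0.44 log2 units, against -0.02 over all tested genes, and 5 of 29 were below 0, against 53% of all tested genes. In all 3 lymphomas 20 of 29 lay higher, against 16.9% of all tested genes, and 2, Ebp and Stard4, lay lower, against 22%. The medians by lymphoma were 0.22, 0.55 and 0.33.

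Hmgcs1 was at 10.48, 10.88 and 11.18 with ADR+4-OHT, against 9.64, 9.86 and 10.25 with ADR alone. The groups did not overlap, and the steps were alike in the 3 lymphomas, 0.84, 1.01 and 0.93, with a mean of 0.93 ± 0.38 (SE, 95% interval 0.09 to 1.76, adjusted p = 0.341). Insig1 was at 9.14, 8.94 and 9.76 with ADR+4-OHT, against 7.94, 7.48 and 9.12 with ADR alone, a difference of 1.10 ± 0.43 (SE, adjusted p = 0.326). It was higher in each lymphoma, although the value of 9.12 in ADR cells of 5043 lay above 1 of the ADR+4-OHT values. Srebf2 was at 8.36, 8.80 and 9.17 with ADR+4-OHT, against 8.23, 7.81 and 8.27 with ADR alone, and these did not overlap (0.67 ± 0.26, SE, adjusted p = 0.316). When arrays were weighted by their quality, Srebf2 was the 1 gene of the set that passed here, with a difference of 0.81 and an adjusted p of 0.0428, and 523 of all tested genes passed under those weights.

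Cyp51, the lanosterol demethylase gene, was at 9.07, 9.35 and 9.49 with ADR+4-OHT, against 8.53, 8.38 and 8.73 with ADR alone. The groups did not overlap (0.76 ± 0.31, SE, adjusted p = 0.338). Msmo1, which acts after it in the pathway, lay 0.94 ± 0.63 (SE, adjusted p = 0.56) higher, with a step of 1.91 in lymphoma 4936 and of 0.25 in 4146. Scd2 was at 12.46, 12.64 and 12.42 with ADR+4-OHT, again above all values with ADR alone (0.70 ± 0.26, SE, adjusted p = 0.309). By role, 10 of 11 sterol genes, 5 of 6 mevalonate genes, 5 of 5 regulators and 4 of 6 fatty acid genes lay above 0.

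Ebp went against the rest, at 8.43, 8.86 and 8.69 with ADR+4-OHT, against 8.97, 9.40 and 8.93 with ADR alone, without overlap (-0.44 ± 0.16, SE, adjusted p = 0.298). Scd1, a desaturase gene of the same family as Scd2, could not be placed. It was at 9.19, 7.74 and 7.30 with ADR+4-OHT, against 7.5, 11.48 and 6.69 with ADR alone, so its difference of -0.48 ± 1.0 (SE) came from the ADR array of lymphoma 4936, and without the 3 arrays that stood apart it was 0.95. Elovl6, a fatty acid elongase gene, gave -0.42 ± 0.37 (SE, adjusted p = 0.672), most of it from lymphoma 4146 at -1.35, with -0.07 in 4936 and 0.17 in 5043. Without the 3 arrays the median of the set was 0.39, with 25 of 29 above 0, and 2 of 29 were higher at an unadjusted p under 0.05, against 5.26% of all tested genes. Fibroblast markers lay lower with ADR+4-OHT with a median difference of -1.54, and macrophage markers with one of -0.48, none of the 13 called, and their part was not tested.

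**Figure D4:**
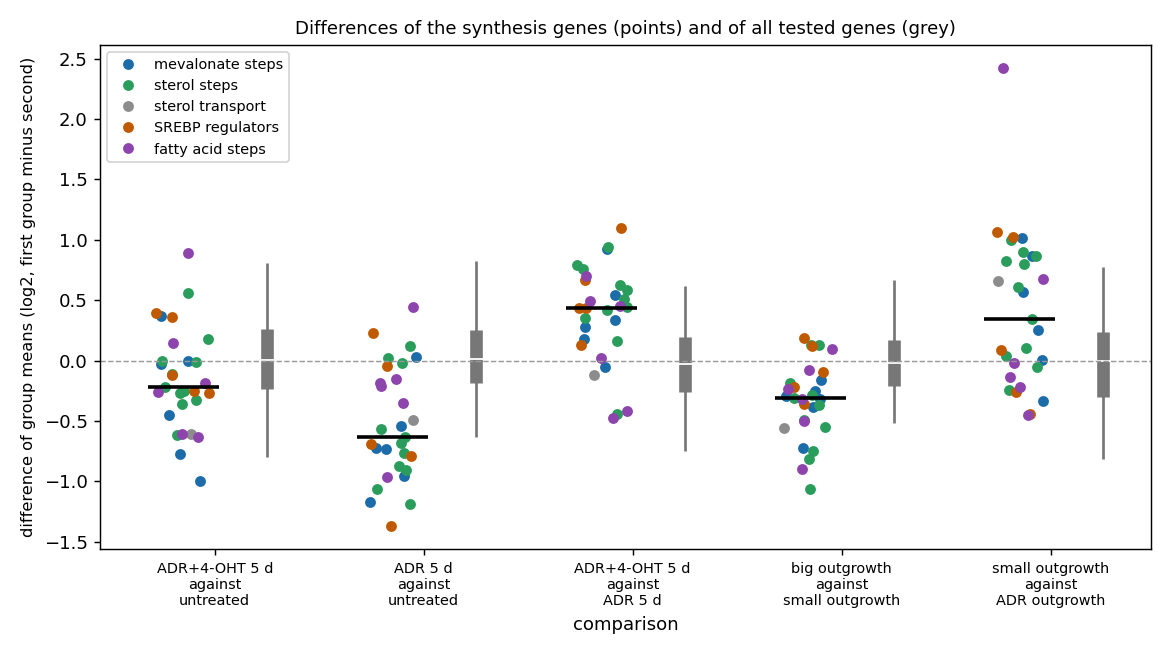
For 5 comparisons the points give the log2 difference of each of 29 genes, coloured by role, with a black line at their median; the grey bar spans the middle of all tested genes (box, quartiles; line, 5th to 95th percentile). The median lies at -0.63 for ADR against untreated and at 0.44 for ADR+4-OHT against ADR.

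ADR+4-OHT against untreated cells gave a smaller and mixed difference. None of the 29 genes passed, where 2.94% of all tested genes did. At an unadjusted p under 0.05, 4 of 29 lay lower, against 10.6% of all tested genes, and 1 lay higher, against 8.59%. The median was -0.22, and it was -0.82 in lymphoma 4146 but 0.32 in 4936 and 0.15 in 5043. Below 0 were 22 of 29, against 49.7% of all tested genes. Without the untreated array of 4146 the median turned to 0.10, and without the 3 arrays that stood apart it was -0.22. Lower in all 3 lymphomas were 7 of 29 genes, against 21.4% of all tested genes, and higher in all 3 were Scap and Fasn, 2 of 29, against 20.7%.

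The gene closest to the threshold was Pmvk, at 8.32, 8.0 and 8.60 with ADR+4-OHT, against the untreated 9.39, 9.18 and 9.33 given above. The groups did not overlap, with a difference of -0.99 ± 0.27 (SE, 95% interval -1.58 to -0.40, adjusted p = 0.0719). Without the 3 arrays that stood apart, none of which enters this difference itself, its adjusted p was 0.024. Fdps, the farnesyl diphosphate synthase gene, lay at -0.77 ± 0.34 (SE, adjusted p = 0.239), but lymphoma 4936 gave 0.11, and Scd1 lay at -0.63 ± 1.0 (SE). Stard4, which carries cholesterol between membranes, was at 8.68, 8.72 and 8.89 with ADR+4-OHT, against 9.71, 9.29 and 9.13 in untreated cells, without overlap (-0.61 ± 0.19, SE, adjusted p = 0.101). Higher values were found for Fasn, at 10.34, 10.66 and 10.63 with ADR+4-OHT, against 10.16, 8.79 and 10.01 in untreated cells (0.89 ± 0.40, SE, adjusted p = 0.248). Every ADR+4-OHT value of Fasn lay above every untreated one, with the largest step, 1.87, in lymphoma 4936. Hsd17b7, a sterol ketoreductase gene, lay at 0.56 ± 0.42 (SE) and Scap at 0.39 ± 0.22 (SE), Scap higher in every lymphoma. The macrophage gene Lyz2 passed in this comparison (5.87 log2 units, adjusted p = 0.0272). All 7 tested macrophage markers lay above 0, with a median of 1.54, as did all 6 fibroblast markers, with a median of 0.55, and their part was not tested.

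The comparisons at 5 days share arrays: ADR alone is the second group of one and the first of another, and both comparisons with untreated cells rest on the same untreated arrays. Their values for the genes are therefore given side by side and were not correlated. For Hmgcs1 the differences were -0.03 for ADR+4-OHT against untreated, -0.96 for ADR against untreated and 0.93 for ADR+4-OHT against ADR. For Pmvk the same differences were -0.99, -1.17 and 0.18, and the kinase gene lay lower in both treated groups than in untreated cells in every lymphoma. The -0.03 for Hmgcs1 was a mean of opposite steps, -1.16 in lymphoma 4146, 0.76 in 4936 and 0.30 in 5043. The synthase gene thus lay low with ADR alone in lymphomas 4936 and 5043, but in both treated groups in 4146.

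In the outgrowth after both agents, big cells lay lower than small cells for most of the set. None of the 29 genes, and none of all tested genes (0%), passed. At an unadjusted p under 0.05, 5 of 29 lay lower in big cells, against 5.82% of all tested genes, and 0 lay higher, against 4.62%. The median was -0.31, against -0.02 over all tested genes, and by lymphoma it was -0.37, -0.32 and -0.30. Below 0 were 24 of 29, against 53.3% of all tested genes. In all 3 lymphomas 16 of 29 lay lower, against 23.3%, and 2, Lss and the citrate lyase gene Acly, lay higher, against 17.8%. Both further Lss probe sets gave -0.19, and those of Acly with means of 10.73 and 7.77 gave 0.15 and -0.29. Acly was at 10.918 and 10.7234 in big cells of 4146 and 5043, against 10.9132 and 10.715 in small cells. Mevalonate genes lay below 0 in 6 of 6, sterol genes in 9 of 11 and fatty acid genes in 5 of 6, and regulators in 3 of 5.

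Msmo1 was at 9.40, 9.26 and 7.32 in big cells, against 10.27, 10.66 and 8.24 in small cells. It was lower in every lymphoma, by 0.87 to 1.40 on the log2 scale, yet lymphoma 5043 lay so low in both that the groups overlapped (-1.06 ± 0.63, SE, adjusted p = 0.616). Elovl6 was at 8.39, 8.71 and 7.94 in big cells, against 9.03, 9.77 and 8.93 in small cells, with no overlap (-0.89 ± 0.37, SE, adjusted p = 0.418). Hsd17b7 lay at -0.81 ± 0.42 (SE), most of it in lymphoma 4936, at -1.78. Stard4 was at 8.86, 8.95 and 8.78 in big cells, against 9.14, 9.43 and 9.70 in small cells, without overlap and with the lowest adjusted p of the set here (-0.56 ± 0.19, SE, adjusted p = 0.328). Cyp51, the sterol desaturase gene Sc5d and the acetyl-CoA carboxylase gene Acaca also lay lower in every lymphoma, by -0.75, -0.55 and -0.50. At the upper end were Insig2 at 0.19 ± 0.34, the lanosterol synthase gene Lss at 0.13 ± 0.35 and the squalene synthase gene Fdft1 at 0.13 ± 0.37 (SE each).

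In lymphoma 5043 both the big and the small array are among those that stood apart, and without them the median over the other lymphomas was -0.35, with 23 of 29 below 0 and 1 of 29 lower at an unadjusted p under 0.05, against 4.45% of all tested genes. Fibroblast markers differed most between the sorted populations, with all 6 tested markers higher in big cells and a median of 2.81. Over all 10 fibroblast markers measured, untested ones included, the median level was 5.23 to 6.13 in big cells and 4.44 to 4.72 in small cells. All 7 tested macrophage markers also lay higher in big cells, with a median of 1.18 and one of 2.03 in lymphoma 5043. The untested Mrc1, C1qa and C1qb had means of 3.26, 3.73 and 2.93 in big cells, against 3.54, 3.77 and 2.95 in small cells. Of the untested fibroblast markers, Pdgfrb had 4.17 against 4.21, and Col1a1, Lum and Thy1 were higher in big cells. The tested Adgre1 (macrophage) and Col3a1 (fibroblast) reached 4.86 only on arrays of big outgrowth and ADR 5 d, and so passed the filter through those groups. The part of either list in the lower synthesis genes was not tested.

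Small outgrowth lay higher than the outgrowth after ADR alone, a comparison that rests on 3 arrays against 2 and can be read within lymphomas 4146 and 4936. None of the 29 genes and none of all tested genes (0%) passed. At an unadjusted p under 0.05, 6 of 29 lay higher in small outgrowth, against 5.08% of all tested genes, and 0 lower, against 8.36%. The median was 0.34, with 9 of 29 below 0, against 50.6% of all tested genes. Within lymphomas 4146 and 4936 the medians were 0.38 and 0.64, while the fit also takes in the unpaired small array of 5043. In both lymphomas 15 of 29 lay higher, against 29.8%, and 2, Ebp and Srebf1, lay lower, against 27%. By role the medians were 0.61 for sterol genes, 0.41 for mevalonate genes, 0.09 for regulators and -0.08 for fatty acid genes.

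Srebf2 was at 9.39, 9.25 and 8.78 in small outgrowth, against 8.52 and 7.73 in ADR outgrowth of lymphomas 4146 and 4936. The difference was 1.02 ± 0.29 (SE, adjusted p = 0.259). Hmgcs1 was at 10.66, 11.49 and 10.44 in small outgrowth, against 9.78 and 9.90 in ADR outgrowth (1.02 ± 0.43, SE, adjusted p = 0.348). Sqle, the squalene epoxidase gene, was at 10.25, 10.16 and 10.14 in small outgrowth, against 9.21 and 9.54 in ADR outgrowth (0.87 ± 0.31, SE, adjusted p = 0.305). For these 3 genes small outgrowth lay above ADR outgrowth in both lymphomas that had both arrays, and lymphoma 5043 had no ADR outgrowth to set its small value against. Insig1 gave 1.06 ± 0.50 (SE, adjusted p = 0.382).

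Scd1 had the largest difference of the set here, at 8.88, 8.50 and 9.92 in small outgrowth, against 6.91 and 6.66 in ADR outgrowth (2.43 ± 1.14, SE, adjusted p = 0.387). Within lymphomas 4146 and 4936 its steps were smaller, 1.97 and 1.83. The small array of 5043 stood apart and had no ADR outgrowth beside it, but enters the fitted 2.43. Fasn lay at -0.45 ± 0.45, Scap at -0.44 ± 0.25 and the isopentenyl diphosphate isomerase gene Idi1 at -0.34 ± 0.48 (SE each). For all 3 the 2 lymphomas disagreed, higher in 4146 and lower in 4936, where ADR outgrowth held Fasn at 10.70 against 9.25 in 4146. Without the 3 arrays that stood apart the median was 0.49, and 11 of 29 were higher at an unadjusted p under 0.05, against 6.4% of all tested genes. The B-cell markers had a median of 1.23 in the same comparison, 1.70 in lymphoma 4146 and 0.19 in 4936. The 6 tested fibroblast markers all lay above 0 there, with a median of 0.74, and the 7 macrophage markers all below, with one of -0.42, and the part of these lists was not tested.

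The difference of ADR+4-OHT 5 d from ADR 5 d and that of small outgrowth from ADR outgrowth both had medians above 0, with big outgrowth, which also had 4-OHT, in neither. A test of whether these 2 differences differed passed for none of the 29 genes, nor for any tested gene (0%). The median over the set of the small outgrowth difference minus that at 5 days was 0.01. It ranged from -0.90 ± 0.60 for Fasn to 2.90 ± 1.52 for Scd1 (SE), and the lowest adjusted p was 0.448, for Stard4.

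**Figure D5:**
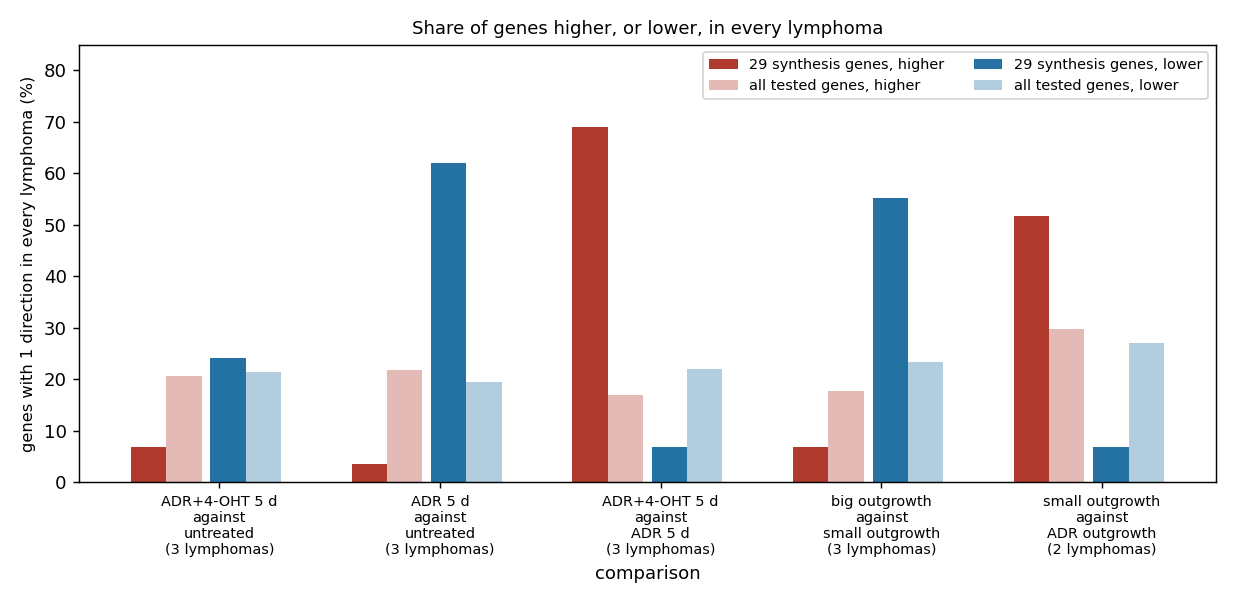
Bars give the percentage of genes that lay higher (red) or lower (blue) in the first group in every lymphoma with both arrays, in full colour for the 29 synthesis genes and pale for all tested genes. After ADR 62.1% of the set lay lower than in untreated cells, and with ADR+4-OHT 69% lay higher than with ADR alone, against 19.5% and 16.9% of all tested genes.

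Over the lymphomas together, each outgrowth had a median below 0 against untreated cells. ADR outgrowth gave -0.73, with 0 of 29 passing (0% of all tested genes) and 11 of 29 lower at an unadjusted p under 0.05, against 1.94%. Its ends were Scd1 at -2.03 ± 1.14 and Insig2 at 0.29 ± 0.39 (SE). By lymphoma the medians were -1.0 in 4146 and -0.17 in 4936, and without the untreated array of 4146 the median was -0.39, with 3 of 29 lower against 2.63%. It was -0.72 without the 3 arrays that stood apart. All 9 B-cell markers lay below 0 in ADR outgrowth against untreated, with a median of -0.91, 4 of them lower at an unadjusted p under 0.05, and the 7 macrophage markers lay above 0 with a median of 0.70, and their part was not tested. Big outgrowth gave -0.50, with 0 of 29 passing, against 0.412% of all tested genes, and 13 of 29 lower at an unadjusted p under 0.05, against 9.89%. Its ends were Msmo1 at -1.41 ± 0.63 and Insig2 at 0.57 ± 0.34 (SE), and lymphoma 4936 had a median of 0.18, against -0.87 in 4146 and -0.93 in 5043. Without the untreated array of 4146 the median was -0.33, with 3 of 29 lower against 6.72% of all tested genes, and without the 3 arrays that stood apart it was -0.36, with 2 of 29 lower against 5.42%. Fibroblast markers had a median of 3.19 in big outgrowth against untreated, 4 of the 6 tested passing as higher, and the 7 macrophage markers one of 1.34, all above 0, and their part was not tested. Small outgrowth gave a median of -0.14, with 0 of 29 passing (0%) and 4 of 29 lower at an unadjusted p under 0.05, against 4.9%. Below 0 were 21 of 29, against 51.3% of all tested genes. The lymphomas disagreed, with medians of -0.56 in 4146, 0.25 in 4936 and -0.47 in 5043. The ends for small outgrowth were Lss at -0.94 ± 0.35 and Hsd17b7 at 0.45 ± 0.42 (SE). Without the untreated array of 4146 the median turned to 0.08, and without the 3 arrays it was -0.065.

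Big outgrowth against ADR+4-OHT 5 d gave a median of -0.33, with 8 of 29 lower at an unadjusted p under 0.05, against 13.1% of all tested genes, and none passing, against 4.02%. By lymphoma the medians were -0.19 in 4146, -0.11 in 4936 and -0.99 in 5043, whose big array is among those that stood apart. The median was -0.15 without the 3 arrays, with 5 of 29 lower at an unadjusted p under 0.05, against 9.11%. Sc5d was closest, at 8.59, 8.57 and 7.78 in big outgrowth, against 8.94, 9.26 and 9.20 with ADR+4-OHT 5 d, without overlap (-0.82 ± 0.21, SE, adjusted p = 0.0514). Idi1 was lowest, with 9.49 ± 0.47 in big outgrowth, against 10.94 ± 0.08 with ADR+4-OHT 5 d (mean ± SD, n = 3 each, difference -1.45 ± 0.42, SE, adjusted p = 0.0713). Fasn was at 9.27, 9.39 and 8.83 in big outgrowth, against 10.34, 10.66 and 10.63 with ADR+4-OHT 5 d (-1.38 ± 0.40, SE, adjusted p = 0.0706). All 3 genes were separated without overlap, and when arrays were weighted by their quality 6 of the 29 passed here, with 1992 of all tested genes passing under those weights and 478 without them. Scd1 was highest at 0.95 ± 1.0 (SE). The fibroblast markers Bgn, Col1a2, Dcn, Pdgfra and Fbln2 passed as higher in big outgrowth in this comparison, where all 6 tested lay above 0 with a median of 2.62, and their part was not tested.

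Across the 17 arrays the genes differed in how closely they varied with the set. The correlation of a gene's deviation with the median of the other 28 genes was 0.91 for Cyp51, 0.87 for Msmo1, 0.82 for Hmgcs1 and 0.81 for Lss (Pearson's r over 17 arrays that share lymphomas and were set to common lymphoma medians, given as a description). Scd2 followed at 0.72 and Insig1 at 0.66. The untreated array of lymphoma 4146, with a median over the set of 0.81, lay far above the next highest array, at 0.30. Cyp51 and Msmo1, which had the highest r, lay 1.29 and 1.84 above their lymphoma medians on it. That single array can therefore weigh heavily in these r values, and how the genes varied together without it was not tested. At the low end, Fasn had 0.28, the sterol reductase gene Tm7sf2 0.22, Ebp -0.06, Scd1 -0.08 and Insig2 -0.44. The Insig pair and the Scd pair each had 1 member at the low end. Scd1 spanned 6.66 to 11.48 log2 units, and its values on the 3 arrays that stood apart were 11.48 on ADR 5 d of lymphoma 4936 and 9.92 on both outgrowth arrays of 5043.

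A wider list of 28 other genes of sterol uptake, export, sensing and lipid synthesis, of which 20 were tested, did not pass for any member in the 5 main comparisons. Its medians were -0.30 for ADR against untreated, 0.12 for ADR+4-OHT against ADR, -0.13 for ADR+4-OHT against untreated, -0.05 for big against small outgrowth and 0.39 for small against ADR outgrowth. The largest differences were 1.72 and 1.66 for Me1, the malic enzyme gene, in ADR against untreated and small against ADR outgrowth, -1.36 for the desaturase gene Fads1 in ADR+4-OHT against untreated (adjusted p = 0.0777), 1.54 for the phosphatidate phosphatase gene Lpin1 in ADR+4-OHT against ADR, and -0.53 for Mylip, the gene of a ligase that degrades the LDL receptor, in big against small outgrowth. Me1 was at 9.81, 12.14 and 11.23 on the 3 arrays that stood apart and at most 6.49 on the others. Fads1 was at 5.68, 5.35 and 5.26 with ADR+4-OHT, against 6.57, 6.89 and 6.91 in untreated cells, without overlap.

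Of the 29 genes, 20 were read by more than 1 probe set. Among the 27 further probe sets with a mean over the arrays at or above 4.86, the sign of the difference was that of the chosen probe set in 21 for ADR against untreated, 24 for ADR+4-OHT against ADR, 23 for ADR+4-OHT against untreated, 20 for big against small outgrowth and 23 for small against ADR outgrowth. The 11 further probe sets with a lower mean were left out of these counts.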

How the data were processed

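Biotin-labelled cRNA from total RNA was hybridised to mouse Affymetrix arrays, per the labels' protocols. The authors deposited log2 values, made with RMA and Partek per the submitters' processing notes, with versions, order and genome build not given in the sources used here. The deposited values ran from -1.95 to 15.87. For each of 45101 probe sets the median was equal in the 3 lymphomas (tolerance 1e-06), a step the labels do not state. Of 18 columns, 17 held values. Precision is limited by the number of arrays, which have no read depth. Replicates are lymphomas, since the treatment protocol has each lymphoma receive the treatments, so arrays of 1 lymphoma are paired; the removed medians prevent a check of the pairing on the values.

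Probe sets with 1 gene symbol in the platform annotation were used (34958; 932 had several and 9211 none), 1 per gene, the one with the highest average. Genes that reached 4.86, the median over the whole table, on 3 or more arrays were tested with limma 3.58.1 in R 4.3.3, with terms for the 6 groups and a block for lymphoma (9 residual and 2.53 prior degrees of freedom) and Benjamini-Hochberg adjustment over all tested genes at 0.05. The script was tested on simulated data. Differences are the first-named group minus the second, unadjusted p counts are descriptions, and SE means that of the fit.

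The genes and lists were chosen with earlier results of these data known. In each main comparison (the 3 at 5 days, big against small and small against ADR outgrowth) the genes named were any that passed and the 3 highest and 3 lowest; in the others, the highest and lowest. Further genes were named after their values were seen. Alternatives dropped the block, changed the filter, normalisation, probe set rule, variance model or arrays fitted, weighted arrays, or left out lymphomas and arrays. Promoters are RefSeq's for GRCm38.p6. Acat2 and several listed genes were not analysed here.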

Additional observations from a re-analysis of the deposited data

How the results depend on the processing

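Under other settings 437 values of the genes that the naming rule took from each main comparison kept their direction and their side of the threshold, 4 moved past it, all of Pmvk, and 9 turned direction; other genes that passed under a setting are named or counted below. Of medians 147 moved by less than the spread between lymphomas and 13 by more, and of counts of genes passing 298 stayed and 18 moved. The lymphoma block pairs arrays of 1 lymphoma, as the treatment protocol gives it. Without that replicate block, 1 gene of the set passed for ADR+4-OHT 5 d against untreated (Pmvk, adjusted p = 0.038 by limma), 4 for big outgrowth against ADR+4-OHT 5 d (Cyp51, Fasn, Idi1 and Sc5d) and 2 over all 6 groups (Pmvk and Stard4); it changed no other call of the set. Quality weights for the arrays gave 1 for ADR+4-OHT 5 d against untreated, 1 for ADR+4-OHT 5 d against ADR 5 d (Srebf2), 5 for big outgrowth against untreated, 6 for big outgrowth against ADR+4-OHT 5 d and 8 over all groups, where 1304, 523, 1117, 1992 and 2853 of all tested genes passed, in the same order. With equal weights these were 350, 0, 49, 478 and 313, and without the block 623 for ADR+4-OHT 5 d against untreated. The mean over probe sets gave 1 for ADR+4-OHT 5 d against untreated (Stard4) and 2 over all groups, and turned Lss for big against small outgrowth to -0.083. Without the 3 arrays that stood apart, and without these and ADR+4-OHT 5 d of lymphoma 4146, 1 gene passed for ADR+4-OHT 5 d against untreated (Pmvk both times, adjusted p = 0.024 and 0.0199); Scd1 for ADR+4-OHT 5 d against ADR 5 d turned to 0.95 and 0.49, and the median for big against small outgrowth was -0.35 both times. That median was -0.27 after quantile normalisation and -0.36 after median centring, and median centring gave 1 passing gene for big outgrowth against ADR+4-OHT 5 d (Sc5d). Leaving out lymphomas or single arrays in turn gave 0 to 4 passing genes for big outgrowth against ADR+4-OHT 5 d, the most without untreated cells of 4936 and 3 without either ADR outgrowth array, and 0 or 1 over all groups. It gave medians from -0.44 to -0.23 for big against small outgrowth and from 0.26 to 0.60 for small against ADR outgrowth. Leaving out lymphomas gave, for ADR 5 d against untreated, -0.066 to 0.24 for Ebp and -0.039 to 0.71 for Fasn, which turned without lymphoma 4936. For ADR+4-OHT 5 d against ADR 5 d it gave -1.56 to 1.15 for Scd1, which turned without 4936, and -0.71 to 0.047 for Elovl6, which turned without 4146. For small against ADR outgrowth it gave -1.30 to 0.25 for Fasn and -0.90 to 0.022 for Idi1, which both turned without 4936. The cause of these moves was not tested beyond the arrays left out.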
